A study of Homo sapiens with 7 samples.

Results

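The loci described here are those of 6 genes of mitosis, CDK1, UBE2C, CCNB1, AURKA, AURKB and PLK1, in maps of HOXB13 acetylated at lysine 13 (HOXB13-K13ac). The members are the peaks that share at least 1 bp with a window of the hg19 genome set around each gene. The windows ran from chr10:62520000-62570000 for CDK1, chr20:44420000-44460000 for UBE2C, chr5:68440000-68490000 for CCNB1, chr20:54920000-54990000 for AURKA, chr17:8090000-8130000 for AURKB and chr16:23670000-23720000 for PLK1. Together they span 300 kb. They held 61 of the 148463 peaks in the 6 deposited lists, and the same site can be counted in several lists.

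HOXB13, a homeobox protein that binds DNA in cells of prostate origin, was mapped in its acetylated form by ChIP-seq. All libraries came from C4-2B, an established castration-resistant prostate cancer line, with no treatment beyond culture in charcoal-stripped serum, which is low in steroid hormones. The antibody against HOXB13-K13ac was used in 3 libraries, IgG, which has no set target, in 2, and 2 more were input, chromatin taken before any antibody. The labels also carry a series number, whose meaning they do not state. It is 2898 for replicate 1 and for an IgG and an input library. Replicates 2 and 3 both carry 3047, as do a single IgG and a single input library. The labels do not say whether the replicates were separate cultures, and since the lists give no read counts, sequencing depth is unknown.

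The replicate 1 list, whose control is not named, held 41303 peaks. The replicate 2 list against input held 45216, and the replicate 3 list against input held 18232. A further list against input, with 36205 peaks, matches no library in the labels and is called the unassigned list here. Replicate 2 also had a list against IgG with 7506 peaks, and replicate 3 one with 1 peak. The names that tie lists to replicates 1 and 3 differ by a punctuation mark, so which library is which rests on that spelling. Fold enrichment is the ratio at the summit of a peak to its control, and it and the −log10 q are the authors' own values for each peak. Values of different lists were not tested against each other, since the list of a replicate comes from 1 library and the lists differ in library or control.

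The 6 genes act together at the entry into and the passage through mitosis. CDK1 is the kinase that starts mitosis once it is bound by cyclin B1, the product of CCNB1. Aurora kinase A (AURKA) works at centrosomes and the spindle and activates Polo-like kinase 1 (PLK1), which in turn promotes the activation of CDK1. Aurora kinase B (AURKB) is the kinase of the chromosomal passenger complex, which corrects faulty attachments of chromosomes to the spindle. UBE2C is the ubiquitin-conjugating enzyme that works with the anaphase-promoting complex to have cyclin B1 degraded at the end of mitosis. In castration-resistant prostate cancer cells, CDK1 and UBE2C are known as M-phase genes with androgen receptor binding at their enhancers.

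Genes of this programme are known to be controlled from their promoters by CCAAT boxes, which bind NF-Y, and by the cell cycle genes homology region, for which TTTGAA is a common form and TTTAAA another. The promoter sequences are therefore shown for the members that have an entry in the RefSeq table (build GRCh38.p14), which were CDK1, CCNB1, AURKB and PLK1 but not UBE2C or AURKA. Each sequence is the 250 bases before a start site, written 5′ to 3′ on the strand of the gene. Where a gene has 2 start sites in the table, as CDK1 and AURKB do, the downstream one was used. Capitals mark these 3 motifs on either strand, so that a CCAAT box of the other strand reads ATTGG and TTTGAA reads TTCAAA. None of the marked motifs overlap each other. The CDK1 sequence is from chr10:60778228-60778477 (plus strand), the CCNB1 sequence from chr5:69166900-69167149 (plus strand), the AURKB sequence from chr17:8210226-8210475 (minus strand) and the PLK1 sequence from chr16:23678639-23678888 (plus strand). These positions are on GRCh38.p14 and were not converted to hg19, the build of the peaks, so the 2 cannot be compared directly.
CDK1: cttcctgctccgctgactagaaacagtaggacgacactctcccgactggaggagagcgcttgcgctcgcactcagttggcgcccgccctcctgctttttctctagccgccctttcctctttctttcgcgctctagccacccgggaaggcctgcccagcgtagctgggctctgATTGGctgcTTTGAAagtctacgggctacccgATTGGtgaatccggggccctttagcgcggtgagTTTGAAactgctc
CCNB1: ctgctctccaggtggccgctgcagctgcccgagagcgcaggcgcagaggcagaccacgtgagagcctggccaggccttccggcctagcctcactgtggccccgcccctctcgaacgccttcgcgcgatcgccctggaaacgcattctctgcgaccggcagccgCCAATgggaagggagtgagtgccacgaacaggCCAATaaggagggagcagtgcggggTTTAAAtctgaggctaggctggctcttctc
AURKB: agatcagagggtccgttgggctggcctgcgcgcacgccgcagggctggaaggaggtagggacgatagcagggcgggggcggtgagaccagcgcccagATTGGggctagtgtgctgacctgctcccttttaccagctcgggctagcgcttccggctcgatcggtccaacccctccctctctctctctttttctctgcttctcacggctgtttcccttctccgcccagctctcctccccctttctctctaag
PLK1: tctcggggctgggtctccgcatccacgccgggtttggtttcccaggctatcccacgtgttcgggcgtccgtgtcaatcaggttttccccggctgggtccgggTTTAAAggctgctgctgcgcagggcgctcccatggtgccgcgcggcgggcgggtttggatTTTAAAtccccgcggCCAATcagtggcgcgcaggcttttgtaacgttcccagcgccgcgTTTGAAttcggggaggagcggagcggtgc

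CCAAT occurred in all 6 promoter entries of these 4 genes, against 32.0% of the 35116 promoters in the table. TTTGAA occurred in 3 of the 6 entries (13.3% of all promoters) and TTTAAA in 3 (11.3% of all). The 6 entries include a further start site each of CDK1 and AURKB, not shown above, so these genes are counted more than once. Among the sequences shown, TTTGAA is in those of CDK1 and PLK1, and TTTAAA in those of CCNB1 and PLK1. CAATAAA, a form of the sequence bound by HOXB13, was in none of the 6 entries and in 3.66% of all promoters, searched on both strands; it can overlap CCAAT by its first letters. The absence of these letters from a window of 250 bases says nothing about binding of the factor. The sequences describe the genes and not the peaks: whether any peak covers them was not measured.

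Whether peaks lie at the promoters of the 6 genes was not determined. The peaks are placed on hg19, the gene table used here is on GRCh38.p14, and positions were not moved between builds. Peaks are therefore named by their window and their hg19 position. A peak in a window need not belong to the gene that names it, because other genes lie close by. In the RefSeq order of protein-coding genes, CDK1 lies between ANK3 and RHOBTB1, and UBE2C between DNTTIP1 and TNNC2. CCNB1 lies between SLC30A5 and CENPH, which encodes a kinetochore protein, and AURKA between FAM210B and CSTF1. AURKB lies between BORCS6 and CTC1, and PLK1 between DCTN5 and ERN2.

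Peaks of replicates 1 and 2 were present at most of the 6 loci, and peaks of replicate 3 at 1 of them. Replicate 1 had 22 peaks, in 5 of the 6 windows, with none in the PLK1 window. Replicate 2 against input had 21 peaks and at least 2 in each of the 6 windows. Replicate 3 against input had 2 peaks, both in the PLK1 window, where replicate 1 had 0. As background, 28.6% of all 50 kb tiles along the genome held a peak of replicate 1, 33.9% a peak of replicate 2 and 22.6% a peak of replicate 3. For replicate 3, 1 of 6 windows is near that share. The tiles include stretches without genes, whereas each window was placed on a gene, so no test was made.

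The peaks in the windows were of ordinary strength for their lists. The median fold enrichment in replicate 1 was 5.32 in the windows, against 4.67 over the whole list. In replicate 2 it was 6.08 in the windows and 6.50 over the whole list. The median width of the peaks was 534.5 bp in the windows and 555 bp overall in replicate 1, and 613 bp and 635 bp in replicate 2. In replicate 1, 13 of 22 peaks lay above the median fold of their list, and in replicate 2, 10 of 21 did. In replicate 1, 20 of 22 peaks had a −log10 q of 5 or more, against 80.7% of its whole list. In replicate 2, 12 of 21 did, against 67.2% of its whole list. The 6 loci thus included both strong and weak peaks, from the 1.65 percentile to the 93.1 percentile of fold enrichment in replicate 1 and from the 8.52 to the 93.2 percentile in replicate 2. A percentile here is the share of peaks in the same list with a lower fold enrichment.

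**Figure D1:**
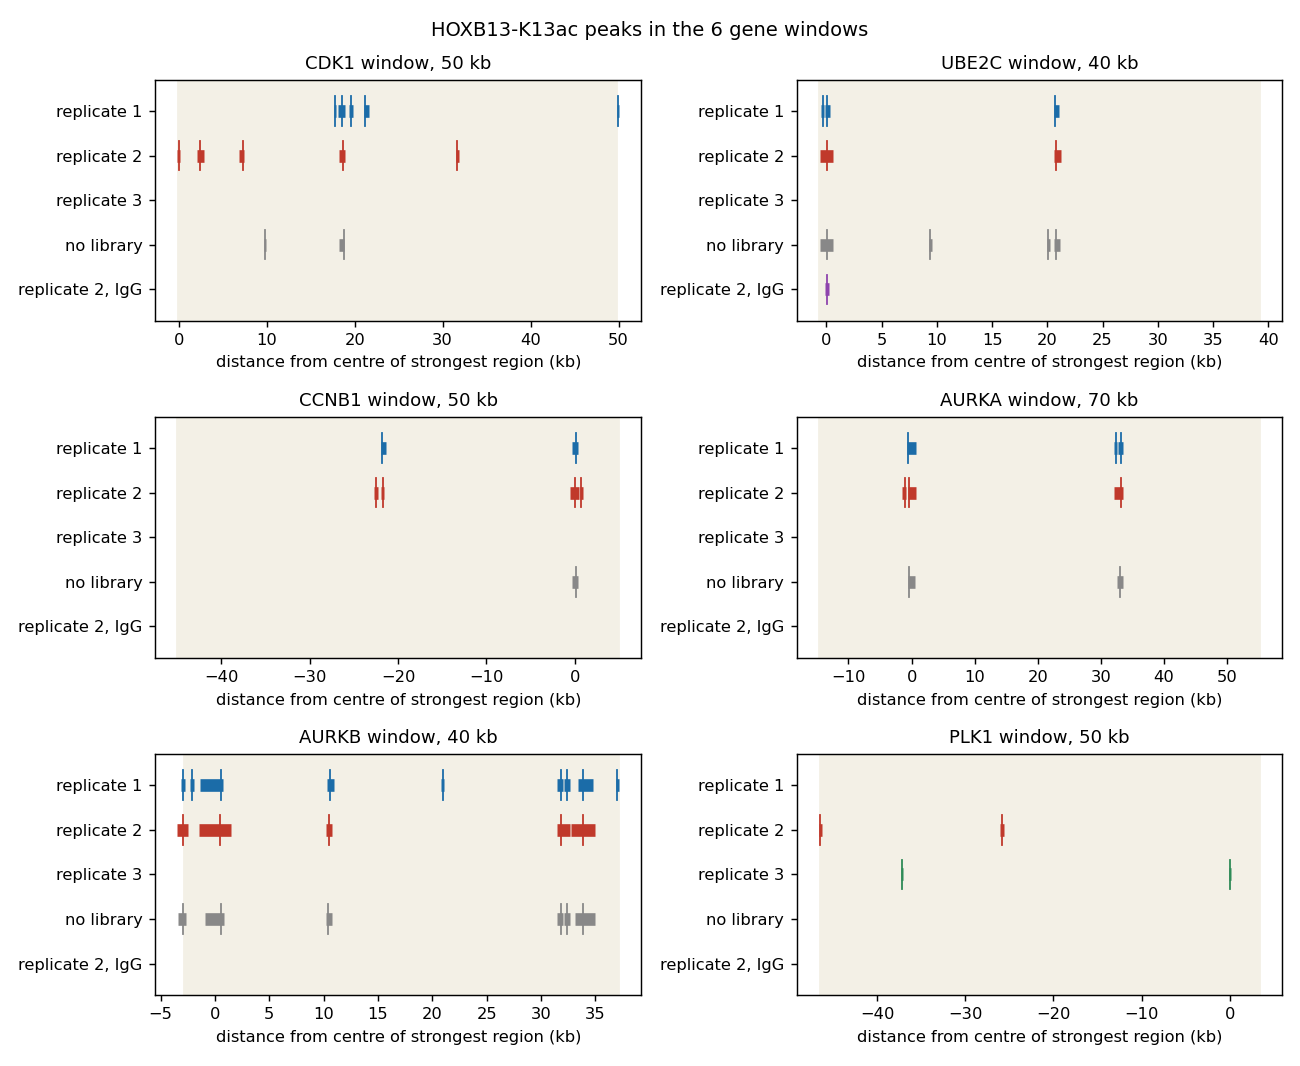
Position of every peak in the 6 windows (shaded), in kb from the centre of the region with the highest fold enrichment in that window; a thick bar is a peak, a thin line its summit, and the rows are replicates 1 to 3, the unassigned list (no library) and replicate 2 against IgG. Peaks of replicates 1 and 2 overlap at 12 places, since the replicate 2 peak of CDK1 region 9 lies outside the window and is not drawn, and the 2 peaks of replicate 3 in the PLK1 window stand alone.

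To see which sites recurred, peaks of replicates 1, 2 and 3 that shared at least 1 bp were merged into regions. The windows met 30 regions, of which 13 were found in at least 2 libraries, all of them in replicates 1 and 2 and none in replicate 3. Over the genome, 41.2% of the merged regions were found in at least 2 libraries, so 13 of 30 is near that share. These 13 shared regions lay in 5 of the 6 windows, 5 of them in the AURKB window and 2 each in the windows of CDK1, UBE2C, CCNB1 and AURKA. As background, 24.5% of all 50 kb tiles met a region found in at least 2 libraries. The 17 other regions comprised 6 of replicate 1, 9 of replicate 2 and 2 of replicate 3. Regions are numbered below along each window by position.

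Summits of replicates 1 and 2 lay close together in the shared regions. The distance between the summits of the strongest peaks was 66 bp in the median, from 10 to 157 bp, and it was at most 100 bp in 11 of the 13 regions. Over all 26760 regions with peaks of both replicates the median was 80 bp, and 57.9% were within 100 bp. The shared regions of the windows had a median width of 1035 bp and those of 1 library 369 bp, against 1005 bp and 327 bp over the genome. In 12 of the 13 shared regions the fold enrichment was higher in replicate 2, the exception being CDK1 region 5. The whole list of replicate 2 also had the higher median, and the control of replicate 1 is not named.

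**Figure D2:**
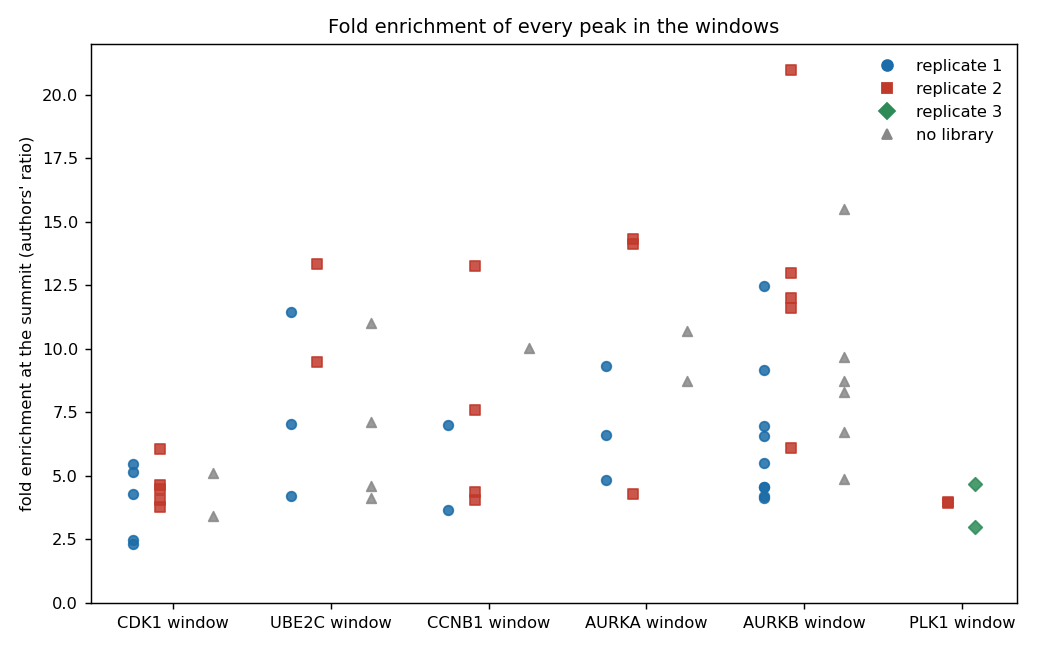
Fold enrichment at the summit (the authors' ratio, linear axis) of every peak in each window, for replicates 1 to 3 and the unassigned list (no library), without the list against IgG. The AURKB window holds the highest value, 20.97 in replicate 2, and no peak of the CDK1 or PLK1 window exceeds 6.07.

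The AURKB window had the most peaks in replicate 1, as many as the CDK1 window in replicate 2, and the strongest peak of both. It held 9 peaks of replicate 1 and 5 of replicate 2, which covered 15.2% and 18.0% of its 40 kb. Of all 40 kb tiles, 0.376% held 9 or more peaks of replicate 1 and 2.25% held 5 or more of replicate 2. The strongest peaks fell at both ends of the window, with weaker peaks between them.

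At the low end of the AURKB window, region 3 (chr17:8091338-8094283) was the broadest of all 30 regions at 2946 bp. Its fold enrichment was 6.95 in replicate 1 and 20.97 in replicate 2, the highest value of replicate 2 in any of the 6 windows. The summits, at 8093363 and 8093282, were 81 bp apart. Region 1 (chr17:8089255-8090289) crosses the edge of the window and had fold enrichments of 6.56 in replicate 1 and 12.02 in replicate 2, with summits 10 bp apart; replicate 1 had a second peak in it, with a fold enrichment of 3.34, that ended 371 bp before the window. Between these lay region 2 (chr17:8090550-8090853), a peak of replicate 1 alone with a fold enrichment of 4.13.

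At the high end, AURKB region 6 (chr17:8124285-8125507) had the highest fold enrichment of replicate 1 in any window, 12.47, and 13.00 in replicate 2. Replicate 1 held it as 2 peaks with fold enrichments of 12.47 and 9.16, separated by 52 bp, and replicate 2 as a single peak of 1187 bp. Next to it, region 7 (chr17:8125610-8127811) had 5.52 in replicate 1 and 11.61 in replicate 2. The lowest −log10 q in these 2 regions was 22.33, for region 7 in replicate 2.

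In the middle of the AURKB window, region 4 (chr17:8103034-8103722) had fold enrichments of 4.19 in replicate 1 and 6.08 in replicate 2. Region 5 (chr17:8113641-8113921) was found in replicate 1 alone, with a −log10 q of 11.68 and a fold enrichment of 4.55. Region 8 (chr17:8129707-8129944), at the high end, was also in replicate 1 alone and had the same fold enrichment and −log10 q to the last printed digit. In replicate 2 no peak lay between 8103618 and 8124321, a gap of 20.7 kb.

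The UBE2C window had 2 regions, both shared by replicates 1 and 2. Region 1 (chr20:44420116-44421308) was the stronger, with a fold enrichment of 11.44 in replicate 1 and 13.33 in replicate 2. Replicate 1 held it as 2 peaks 55 bp apart with fold enrichments of 7.03 and 11.44, and replicate 2 as 1 peak of 1193 bp. It was the only region of the 6 windows with a peak of replicate 2 against IgG, at chr20:44420602-44420951. The summit of that peak, 44420751, was the same base as the summit against input.

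The peak against IgG was near the middle of its list. Its fold enrichment over IgG was 3.37, above the median of 3.10 of its list, and its −log10 q was 1.01. That is short of a q of 0.05, which 1616 of the 7506 peaks of the list reached. Of the 13 shared regions, 1 was thus found against IgG, while 23.2% of all regions of at least 2 libraries were found in that list. The list against IgG had a peak in 8.48% of all 50 kb tiles and in 1 of the 6 windows. That count depends on the window edges: with 25 kb added on both sides the list had 7 peaks, in 4 of the 6 windows. Of these peaks, 4 were in the stretches added beside the AURKB window, which itself held 0. The IgG list of replicate 3 had none in the windows. No list of replicate 1 is named as made against IgG.

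UBE2C region 2 (chr20:44441281-44441912) lay 20.3 kb beyond region 1, measured between the peaks of replicate 1. Its fold enrichment was 4.20 in replicate 1 and 9.49 in replicate 2, at the 41.8 and 69.7 percentile of the lists. The summits, at 44441448 and 44441488, were 40 bp apart. Both UBE2C regions were therefore found at closely matching positions, and the second was the weaker one in both libraries.

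The AURKA window had 2 shared regions 31.5 kb apart in replicate 1. Region 2 (chr20:54934038-54935417) had a fold enrichment of 6.60 in replicate 1 and 14.32 in replicate 2. Region 3 (chr20:54966845-54968205) had 9.33 in replicate 1 and 14.14 in replicate 2. The order of the 2 regions was therefore different in the 2 libraries, although in replicate 2 they were nearly equal.

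In AURKA region 3, replicate 1 had 2 peaks separated by 144 bp, with fold enrichments of 4.85 and 9.33, whereas replicate 2 had 1 peak of 1361 bp across both. The strongest summits, at 54967867 and 54967903, were 36 bp apart. Region 1 (chr20:54933234-54933854) was a peak of replicate 2 alone with a fold enrichment of 4.30, 269 bp before the peak of replicate 2 in region 2. The nearest peak before the window lay 1320 kb away in both replicates, and the nearest after it 53.2 kb away in replicate 1 and 53.7 kb away in replicate 2.

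The CCNB1 window had a stronger and a weaker shared region 21.1 kb apart in replicate 1. Region 3 (chr5:68484478-68485456) had a fold enrichment of 6.99 in replicate 1 and 13.25 in replicate 2, at the 72.6 and 81.6 percentile. Region 2 (chr5:68463001-68463592) had 3.67 in replicate 1 and 4.38 in replicate 2, at the 30.6 and 19.9 percentile. The −log10 q of region 2 was 7.45 in replicate 1 and 3.78 in replicate 2.

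Replicate 2 had further peaks beside both CCNB1 regions. Region 1 (chr5:68462248-68462682), 318 bp before region 2, had a fold enrichment of 7.58 in replicate 2 and no peak in the other libraries. Region 4 (chr5:68485516-68485932), 59 bp after region 3, had 4.05. In replicate 2 the stronger of the first 2 peaks was thus the one not found in replicate 1.

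The CDK1 window had many peaks, and most were weak and found once. It held 5 peaks of replicate 1 and 5 of replicate 2, and 7 of its 9 regions were found in 1 library. Over the genome, 38629 of the 65675 merged regions were found in 1 library, so this was the more frequent case there too. Of all 50 kb tiles, 3.36% held 5 or more peaks of replicate 1 and 3.35% of replicate 2. The highest fold enrichment was 5.47 in replicate 1, at the 59.9 percentile, and 6.07 in replicate 2, at the 44.9 percentile.

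CDK1 region 5 (chr10:62538269-62539069) was the shared region inside the window, with a fold enrichment of 5.47 in replicate 1 and 3.79 in replicate 2. Its −log10 q was 13.65 in replicate 1 and 2.93 in replicate 2, and the summits were 157 bp apart, the widest distance of the 13. Replicate 1 had a peak of similar strength 277 bp before it, region 4 (chr10:62537761-62537991), with a −log10 q of 16.88 and a fold enrichment of 5.17. Region 4 had no peak in replicate 2, whose next peaks in the window were 10.9 kb before and 12.6 kb after its own peak in region 5. Replicate 1 also had 2 weak peaks after region 5, at chr10:62539522-62539926 and chr10:62541141-62541757, with fold enrichments of 2.48 and 2.33.

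The other regions of the CDK1 window were peaks of replicate 2 alone. Region 1 (chr10:62519971-62520304), which crosses the low edge of the window, had the highest fold enrichment of the 4, 6.07. Regions 2 (chr10:62522188-62523017) and 3 (chr10:62526973-62527496) had 4.05 and 4.63, and region 8 (chr10:62551605-62551973) had 4.47. None of them had a peak in the unassigned list either.

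The other shared CDK1 region depends on the edge of the window. Region 9 (chr10:62569945-62570379) met the window by 56 bp of a replicate 1 peak with a fold enrichment of 4.27. The replicate 2 peak in this region, with a fold enrichment of 4.52, began 19 bp beyond the last base of the window. In all, 2 peaks of replicate 1 and 3 of replicate 2 crossed a window edge.

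The PLK1 window had no shared region. Replicate 2 had 2 peaks, at chr16:23669894-23670243 and chr16:23690451-23690941, with fold enrichments of 3.92 and 3.96, at the 10.1 and 10.8 percentile of its list. Replicate 3 had 2 peaks elsewhere in the window, at chr16:23679191-23679484 and chr16:23716401-23716652, with fold enrichments of 2.98 and 4.67. The first of the replicate 3 peaks had a −log10 q of 0.89, short of a q of 0.05. All 4 peaks were thus in 1 library each and in the lower part of their list, except that the second of replicate 3 stood at the 56.3 percentile.

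Outside the PLK1 window, the nearest peak before it lay 16.7 kb away in replicates 1 and 2, with fold enrichments of 4.08 and 12.52. The nearest after it lay 830 kb away in both, with fold enrichments of 5.15 and 54.31. Replicates 1 and 2 therefore had shared peaks on both sides of the window and none within it. For the CCNB1 window, the nearest peaks before it lay 49.2 kb away in replicate 1 and 49.0 kb away in replicate 2, with fold enrichments of 11.85 and 28.35, above those of the window's own peaks in each list. Replicate 3 had a peak at that site as well, 49.6 kb before the CCNB1 window, with a fold enrichment of 6.22, whereas it had none within the window. After the CCNB1 window, the nearest peak lay closer, 23.6 kb away in replicates 1 and 2. Its fold enrichments were 11.1 and 20.89, also above those of the window's own peaks. The nearest of replicate 3 on that side lay 175 kb away.

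**Figure D3:**
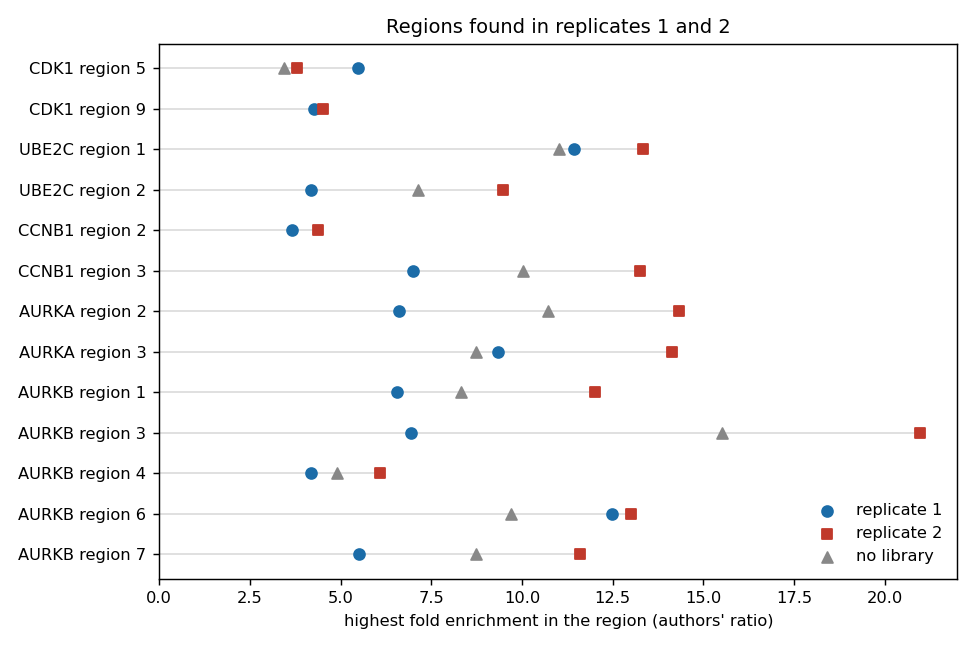
Highest fold enrichment (the authors' ratio, linear axis) in each of the 13 regions found in replicates 1 and 2, with the unassigned list (no library) where it had a peak; regions are numbered by position within a window. Replicate 2 is higher in 12 of the 13, and the span runs from 3.79 in CDK1 region 5 to 20.97 in AURKB region 3 in replicate 2.

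The unassigned list repeated most of the shared regions. It had a peak in 11 of the 13, against 86.9% of all regions of at least 2 libraries. It had one in 0 of the 17 regions of 1 library, against 16.5% of all such regions, a difference that was not tested. The shared regions without such a peak were CDK1 region 9 and CCNB1 region 2. Its 15 peaks lay in 5 of the 6 windows, with none in the PLK1 window, while 27.6% of all 50 kb tiles held a peak of that list. As this list may come from a library already among the 3 replicates, it was not counted as a further replicate.

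In the number of peaks, the windows ranked differently in the 2 libraries. In replicate 1 the AURKB window had 9 peaks, CDK1 had 5, UBE2C and AURKA had 3 each, CCNB1 had 2 and PLK1 had 0. In replicate 2, AURKB and CDK1 had 5 each, CCNB1 had 4, AURKA had 3, and UBE2C and PLK1 had 2 each. By the highest fold enrichment, the AURKB window came first in both libraries, but at different sites. The value was 12.47 in region 6 for replicate 1 and 20.97 in region 3, at the other end of the window, for replicate 2. UBE2C came next in replicate 1 with 11.44, followed by AURKA with 9.33. In replicate 2, AURKA with 14.32, UBE2C with 13.33 and CCNB1 with 13.25 came next. CDK1, with 5.47 and 6.07, was below these 4 in both libraries. PLK1 had no peak in replicate 1, and its 3.96 was the lowest value of the 6 in replicate 2. These orders rest on 1 value per library, so neighbours in them cannot be told apart by a spread.

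**Figure D4:**
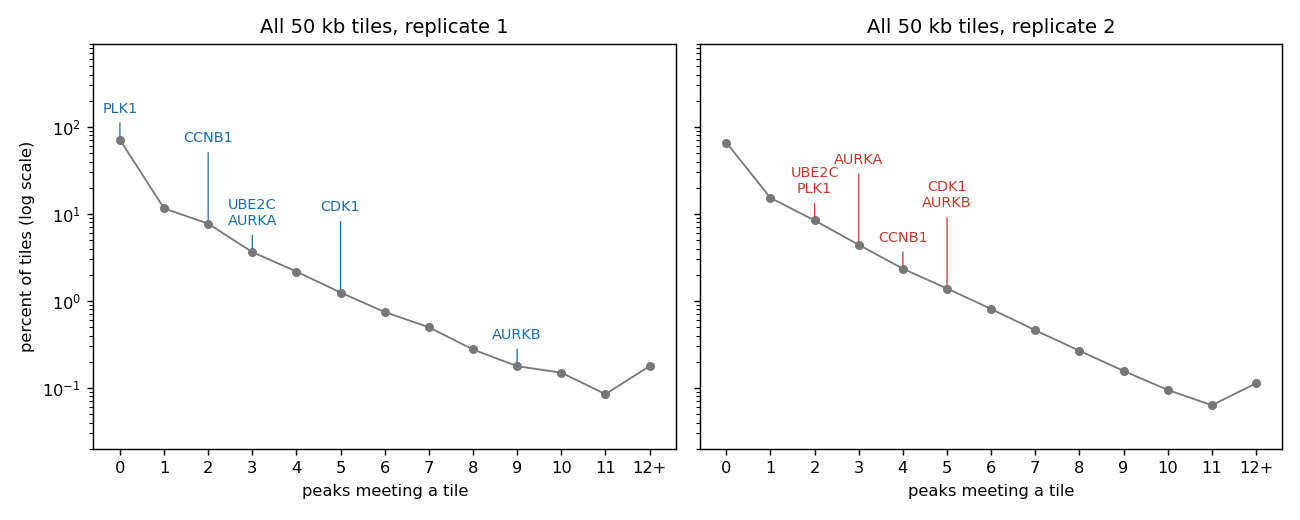
Percent of all 50 kb tiles (log axis) that met a given number of peaks of replicate 1 (left) and replicate 2 (right), with the 6 windows, of 40 to 70 kb, marked at their own counts. The last point pools tiles with 12 or more peaks. The AURKB window with 9 peaks of replicate 1 lies farthest out, and the PLK1 window with 0 is the only one without a peak of that replicate.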

How the data were processed

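Positions are on hg19 (GRCh37), per the submitters' processing notes, which also name MACS2, Bowtie2, BWA and CASAVA 1.4 without saying what each did; neither thresholds nor filters were given in the sources used here. The 6 deposited lists hold, for each peak, a fold enrichment (a ratio to the control) at the summit, the position of the summit, and a −log10 p and −log10 q, all as the authors deposited them. The depth of the libraries is unknown. Positions were counted from 1.

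Overlaps and medians were computed in Python 3.11.15 with pandas 2.3.3 and NumPy 2.4.6, and matplotlib 3.10.9 drew the figures. Peaks counted for a window, and were merged into regions, when they shared 1 bp. Tiles of 50 kb, or of a window's own length, covered each chromosome between its outermost peaks, assembly gaps included. Merging was tested on simulated lists, which held 2028 shared sites, of which 2028 were found, and bedtools 2.31.1 gave the same window counts for the 6 lists. The simulated sites were far apart and the peaks of a site always overlapped, so the merging of close neighbours was not tested.

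No test was made, as the list of each replicate comes from 1 library. By the rule for naming, all regions of the 6 windows are described. The planned calls of promoter peaks, for the 6 genes and for a list of other mitotic genes, were not made because no hg19 annotation was used here. The genes, windows, motifs and lists were chosen with earlier results of these data known. Alternatives changed the overlap rule, the q threshold, the window edges and the libraries.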

Additional observations from a re-analysis of the deposited data

Results flagged for a closer look

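The unassigned list, which the comparison of libraries leaves out, had 15 peaks in the 6 windows. It is given here because it is a signal outside that comparison, and no list of IgG or input alone was used to set beside it. Of the 15 peaks, 12 lay in regions of the 3 libraries. The other 3 were chr10:62529803-62530005 in the CDK1 window with a fold enrichment of 5.11, and chr20:44430006-44430272 and chr20:44440646-44440959 in the UBE2C window with 4.60 and 4.11.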

How the results depend on the processing

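The 3 libraries had 45 peaks in the 6 windows. With windows widened by 25 kb on both sides there were 83, as the windows were then longer; the replicate 2 list against IgG had 7 peaks there, against 1 in the windows as given. With the summit required in the window there were 42, with a q of 0.05 or less 44, and with a −log10 q of at least 5 there were 32. For replicate 2 alone this last threshold left 12 of 21 peaks, against 67.2% of its whole list. For replicate 3 it left 0 of 2, and for the list against IgG 0 of 1. The whole-list shares of these lists at that threshold were not computed. In the list against IgG, 1616 of 7506 peaks reached a q of 0.05. The 13 shared regions became 9 when summits had to be within 100 bp of each other and inside the window. In an alternative chosen after seeing the data, with summits within 100 bp but in or outside the window, there were 11. They became 11 when the overlap had to reach 0.5 of the width of each peak and 10 with a −log10 q of at least 5. They stayed at 13 with a q of 0.05 or less and with the unassigned list in place of replicate 3. That q dropped none of the 22 peaks of replicate 1 or the 21 of replicate 2 in the windows. Replicates 1 and 2 both stay in when replicate 3 is replaced, so no shared region could lose its support. An unchanged 13 therefore says little. Leaving out a library and requiring both of the others gave 0 without replicate 1, 0 without replicate 2 and 13 without replicate 3, so every shared region rests on replicates 1 and 2 together. The highest fold enrichment of a window, known for 12 pairs of window and library, had a value in 34 alternatives and was identical in 33 of them. The exception was replicate 1 in the CDK1 window, where the peak with the lowest p had 5.17 rather than 5.47. The alternatives by summit and by q only drop peaks, so they alter the value only if the strongest peak is dropped. Identical values in them therefore say little. At a −log10 q of at least 5 the PLK1 window gave no value in either library. Alternatives for promoter peaks were not run, since those peaks were not called. No paired analysis was possible because no result comes from a test. Unknown depth limits all counts: a missing peak does not show missing binding.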

Other observations

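In the 6 windows, 2 of the 15 peaks of the unassigned list began at the same base as a peak of replicate 2 against input, at 54934124 in the AURKA window and at 8124321 in the AURKB window. None of the 15 began at the same base as a peak of replicate 1 or of replicate 3. Over the whole list of 36205 peaks, 4.18% had the same first base as a peak of replicate 2, against 0.342% for replicate 1 and 0.398% for replicate 3.

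In the regions that replicate 1, replicate 2 and the unassigned list all held, the summits of the strongest peaks spanned 30 bp in UBE2C region 1 and 171 bp in CDK1 region 5, the narrowest and the widest of the 11.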
